A study of Homo sapiens with 15 samples.

Results

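Glycolysis, gluconeogenesis and glucose sensing were followed through 35 genes, out of 60557 genes counted in every library of the study. The genes were taken by symbol and matched to the Ensembl identifiers of the count tables, and all 35 were found. They cover the hexose transporters, the enzymes from hexokinase to lactate, the enzymes that set the level of fructose-2,6-bisphosphate, the pyruvate dehydrogenase step, the enzymes particular to glucose synthesis, and genes that respond to glucose or handle fructose. A list of 59 further genes of the same pathways was set beside them. All cells were Caco-2, a human colorectal carcinoma line that grows into an enterocyte-like monolayer. The control group was left unexposed, and the other groups received dishwasher rinse aid for 24 h, diluted 1:40000 or, as the stronger solution, 1:10000. Each group had 5 polyadenylated RNA libraries. No label says that these are separate cultures, so each p-value speaks only of the variation from library to library, which may be technical.

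Glucose enters a cell through membrane transporters of the SLC2A family and is trapped when a hexokinase adds a phosphate. Phosphofructokinase then commits it to glycolysis, under the control of fructose-2,6-bisphosphate, and the lower enzymes turn the triose phosphates into pyruvate, which becomes lactate or enters the mitochondrion. Enterocytes also absorb fructose, phosphorylate it with ketohexokinase, and hold enzymes that run part of the pathway backwards. Sugar levels are read by ChREBP, the product of MLXIPL, and its relative MondoA, which pair with MLX and bind carbohydrate response elements, 2 E-box-like motifs set 5 bases apart. TXNIP and ARRDC4, which encode alpha-arrestins that lower glucose uptake, are textbook targets of these factors.

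These 4 promoters are shown because they belong to genes that the results turn on and hold E-box-like motifs. Only that of TXNIP holds the paired motif of a carbohydrate response element. Those of ARRDC4, HK2 and LDHA hold the single E-box CACGTG without the pair. RefSeq promoter windows on GRCh38.p14, from 250 bases before to 50 after a transcript start, were found for 31 of the 35 genes, in 56 windows. The sequences below are the parts of the windows upstream of any exon that GENCODE 29 gives the gene at that start, 5′ to 3′ on the gene's strand, and capitals mark the motif. The HK2 stretch lies in the intron after an exon with an earlier start.
TXNIP, chr1:145996601-145996829, minus strand: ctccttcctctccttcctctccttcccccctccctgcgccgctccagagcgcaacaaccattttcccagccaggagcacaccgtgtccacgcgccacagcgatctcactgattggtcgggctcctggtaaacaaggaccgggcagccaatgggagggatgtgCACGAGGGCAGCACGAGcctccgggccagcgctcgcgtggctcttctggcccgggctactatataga
ARRDC4, chr15:97960453-97960697, plus strand: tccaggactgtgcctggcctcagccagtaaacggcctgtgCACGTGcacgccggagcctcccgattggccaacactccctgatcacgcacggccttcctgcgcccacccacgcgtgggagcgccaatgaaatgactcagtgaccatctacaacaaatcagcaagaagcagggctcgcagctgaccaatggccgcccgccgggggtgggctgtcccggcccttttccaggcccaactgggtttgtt
HK2, chr2:74834920-74835169, plus strand: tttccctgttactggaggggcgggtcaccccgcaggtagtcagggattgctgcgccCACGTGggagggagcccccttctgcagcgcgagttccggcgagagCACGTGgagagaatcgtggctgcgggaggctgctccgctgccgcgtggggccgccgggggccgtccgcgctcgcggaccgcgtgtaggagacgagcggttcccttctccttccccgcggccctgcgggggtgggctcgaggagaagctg
LDHA, chr11:18394313-18394387, plus strand: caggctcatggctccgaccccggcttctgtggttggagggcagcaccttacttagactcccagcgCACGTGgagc

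The double motif, CACGNG followed by any 5 bases and again CACGNG, searched on both strands, lay in 20 of 35116 windows (0.057%). TXNIP was the only one of the 31 genes with it, starting 88 bases before the start of transcription. The single E-box CACGTG, which is its own reverse complement and can overlap the double motif, lay in 2548 windows (7.26%) and in windows of 9 of the 31 genes, namely ALDOA, ALDOC, ARRDC4, GAPDH, HK2, LDHA, PDHB, PDK2 and PFKFB3. In ARRDC4 it began 210 bases before the start, in HK2 194 and 149 bases before, and in LDHA 185 and 87 bases before, the last of these inside an annotated exon and so not shown. A match is only a description of the letters in the window. Between the dilutions HK2 was much higher at 1:10000, LDHA was slightly lower there, and TXNIP and ARRDC4 were not called. TXNIP and ARRDC4 lay below control at both dilutions, as given below. Of the other genes with the single E-box, GAPDH and PDHB were called higher at 1:10000 than at 1:40000, and ALDOC and PDK2 lower. ALDOA and PFKFB3 were not called. The part of the motifs in these differences was not tested.

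Library totals were 4333226 to 14230853 counts for control, 5489425 to 9555632 for 1:10000 and, for 1:40000, 2551839 (replicate 2) to 172092447 (replicate 1). Levels are normalised counts (CPM, scaled to a common library size), adjusted between libraries by edgeR's trimmed mean of M-values, given as mean ± SD over 5 libraries. Levels of different genes are compared only per kilobase of annotated exon. Of 10 epithelial markers, 9 had a mean of at least 1 CPM in each group (KRT20 did not), and their sum was 10695 to 12281 CPM of the library total in control libraries, 10280 to 11581 at 1:40000 and 11369 to 12553 at 1:10000. Single markers moved with the dilution: in the order control, 1:40000 and 1:10000, mean CPM was 179, 197 and 58.6 for CDX2, 597, 453 and 202 for HNF4A, 792, 605 and 440.1 for VIL1, and 2485, 2386 and 3680.5 for KRT18. Of 7 leukocyte markers 2 reached 1 CPM, CD14 (10.7, 13.1 and 4.5 CPM in that order) and LYZ (8.23, 7.36 and 4.44), while PTPRC was at 0. Of 5 endothelial markers only PECAM1 did (7.74, 9.21 and 2.92 CPM), with KDR and CLDN5 at 0. Summed over the list, leukocyte markers ran from 14.4 to 22.4, 16.3 to 24.5 and 8.2 to 11.1 CPM, and endothelial markers from 3.92 to 11.4, 7.71 to 11.7 and 3.04 to 3.83 CPM. Summed fibroblast markers were 185 to 201 CPM in control libraries, 145 to 164 at 1:40000 and 79.9 to 104 at 1:10000, with 5 of 7 at 1 CPM or more and DCN at or near 0. Mitochondrial ribosomal RNA also moved with exposure, taking 0.216 to 0.349% of control counts, 0.626 to 1.24% for the weaker and 3.11 to 3.83% for the stronger dilution. The part of these differences in the results below was not tested, and in bulk RNA fewer cells of a type and less RNA per cell cannot be told apart.

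The main comparison is that between the dilutions, because both sets of files name the same aligner and hold the same genes. It asks how the sugar-handling genes differ between a stronger and a weaker exposure. Of the 35 genes, 34 had enough counts to be tested, and 22 of these differed at an adjusted p under 0.05 in edgeR's quasi-likelihood test, adjusted by Benjamini-Hochberg over all 13157 genes tested. The 9 that were higher at 1:10000 were SLC2A1, SLC2A2, SLC2A3, HK2, PFKP, PFKFB2, GAPDH, ENO2 and PDHB. The 13 that were lower were SLC2A5, PFKL, ALDOC, TPI1, PFKFB4, PKM, LDHA, PDK2, PDHA1, PCK2, FBP1, MLXIPL and KHK. Among all genes tested 57.3% were called, 28.3% higher and 29.0% lower, so the share of these genes that was called, 64.7%, was near the background. The 5 libraries of one dilution lay wholly above those of the other for 18 of the 34, against 40.3% of all genes tested. The median log2 fold change was -0.0096 for the 34 genes and -0.0066 for all genes, and the median size of the change without its sign was 0.41 and 0.34. Replicates 3 to 5 resembled each other more than replicates 1 and 2 in the controls (mean chi-square per gene 1.73 to 2.15 within 3 to 5, 4.69 to 8.34 across the sets) and at 1:10000 (1.92 to 2.51 and 4.57 to 8.46), and less clearly at 1:40000 (2.61 to 4.83 and 4.33 to 48.8). Replicates 1 and 2 differed from each other by 4.28 in the controls, 4.60 at 1:10000 and 3.46 at 1:40000. In the controls and at 1:10000 that is near the lowest values across the sets, so they form no close set. The measure grows with library depth, and 48.8 is between 1:40000 replicates 1 and 3, the deepest libraries of that group. No label names a batch. Between the dilutions 27 genes of the pathway were called in replicates 3 to 5 alone (57.2% of all genes) and 19 in replicates 1 and 2 alone (43.0%). Of the 22 calls, replicates 3 to 5 kept 21, without SLC2A2, and replicates 1 and 2 kept 17, without TPI1, GAPDH, ENO2, PKM and LDHA. With the set of replicates as a term, all 22 were kept.

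**Figure D1:**
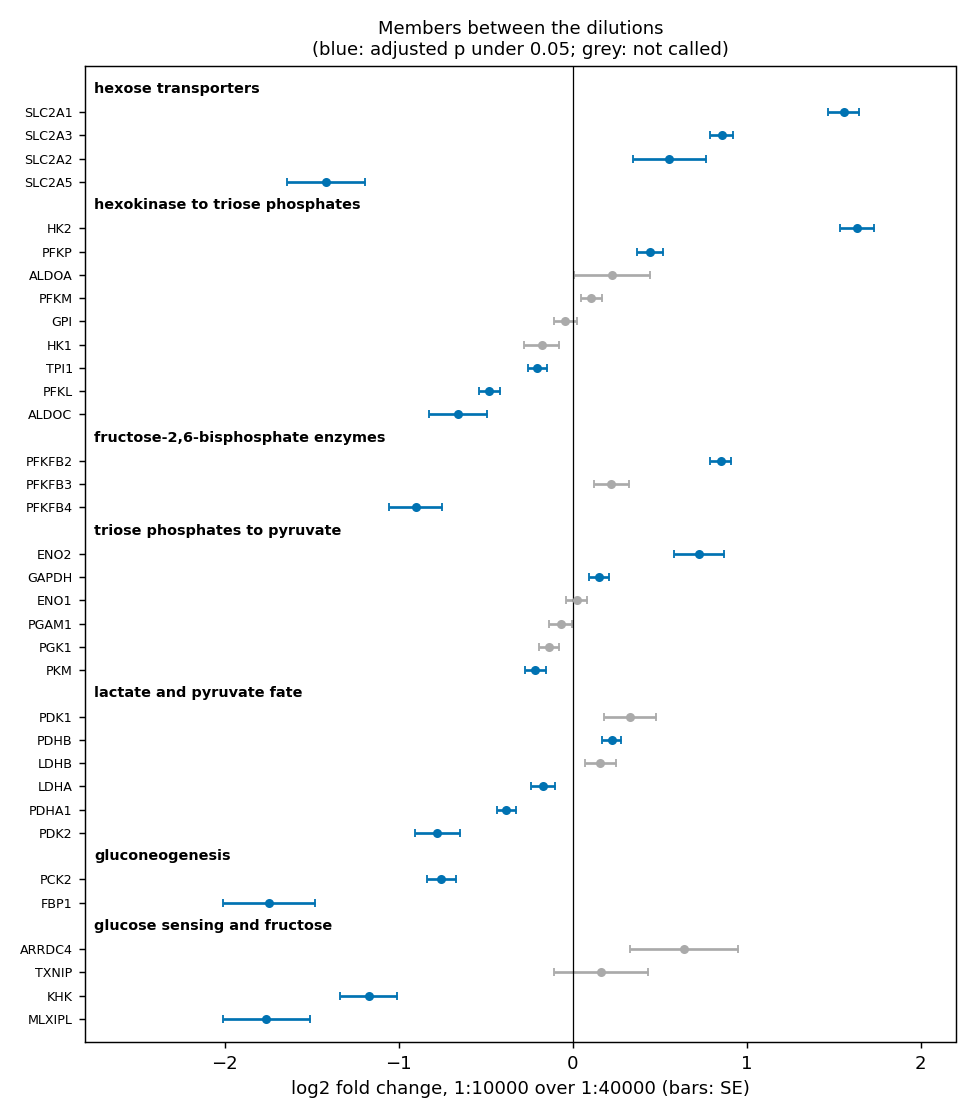
Log2 fold change at 1:10000 over 1:40000 for the 34 genes tested, grouped by role, with bars of 1 SE; blue points passed the adjusted p of 0.05 and grey points did not. HK2 and SLC2A1 stand farthest to the right at 1.63 and 1.56, and MLXIPL and FBP1 farthest to the left at -1.76 and -1.74.

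Among the 4 hexose transporters SLC2A1, SLC2A3 and SLC2A2 were higher at 1:10000, the call of SLC2A2 being lost in 8 of 21 alternatives, and SLC2A5 was lower. SLC2A1 (ENSG00000117394, chromosome 1 from 42925375 to 42959176 on GRCh38) encodes the widespread basal glucose transporter. Its level was 453, 353, 468, 455 and 522 CPM in the 1:40000 libraries and 1354, 1632, 1194, 1225 and 1255 CPM in the 1:10000 libraries. Each 1:10000 library was higher than any 1:40000 library, a 2.94-fold difference with a log2 fold change of 1.56 ± 0.09 (± SE, adjusted p = 1.0e-11).

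SLC2A3 (ENSG00000059804, chromosome 12 from 7919230 to 7936275) encodes a glucose transporter of high affinity. It measured 4689, 4909, 4540.0, 4397 and 4408 CPM at 1:40000 and 8495, 9596, 8073, 7248 and 8126 CPM at 1:10000. These groups did not overlap, and the log2 fold change was 0.86 ± 0.07 (adjusted p = 9.7e-11). Per kilobase of exon it was the most abundant transporter of the 4, at 1349 ± 138 CPM per kilobase at 1:10000 against 282 ± 37.7 for SLC2A1. SLC2A14, a near-identical copy of SLC2A3 whose reads may be split with it, had 29.3 ± 3.28 CPM per kilobase in the same libraries.

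SLC2A2, which encodes the low-affinity transporter of the basolateral membrane, was scarce. It had 4.59, 3.44, 5.60, 4.43 and 6.46 CPM at 1:40000 and 10.5, 9.77, 4.16, 7.63 and 5.28 CPM at 1:10000. The ranges overlapped, with replicates 1 and 2 at 1:10000 the highest, and the log2 fold change was 0.56 ± 0.21 (adjusted p = 0.027). At 1:40000 these levels rest on 9 to 797 counts per library and at 1:10000 on 33 to 90. The call was lost without 1:10000 replicate 1 (adjusted p = 0.14) or replicate 2 (adjusted p = 0.073), and without 1:40000 replicate 1 (adjusted p = 0.071) or replicate 4 (adjusted p = 0.056). In replicates 3 to 5 alone the log2 fold change was 0.04 (adjusted p = 0.89), and in replicates 1 and 2 alone it was 1.19 (adjusted p = 0.00025).

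SLC2A5 (ENSG00000142583, chromosome 1 from 9035107 to 9088478), the fructose transporter of the brush border, went the other way. Its libraries held 5.08, 6.88, 6.89, 9.06 and 8.20 CPM at 1:40000 and 3.04, 2.24, 1.77, 3.36 and 2.64 CPM at 1:10000. All libraries of the stronger dilution were below those of the weaker, with a log2 fold change of -1.42 ± 0.23 (adjusted p = 8.7e-06). These levels rest on 11 to 26 counts per library at 1:10000.

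Among the 9 enzymes from hexokinase to the triose phosphates, HK2 and PFKP were higher at 1:10000, PFKL, ALDOC and TPI1 were lower, and 4 did not pass the test. HK2 (ENSG00000159399, chromosome 2 from 74833981 to 74893359), the inducible hexokinase of the mitochondrial surface, was at 56.1, 42.0, 55.5, 52.6 and 53.5 CPM at 1:40000. At 1:10000 it was at 190.3, 185, 146, 150.1 and 152 CPM, 3.1-fold higher and far above every library of the weaker dilution. The log2 fold change of 1.63 ± 0.10 (adjusted p = 4.7e-12) was the largest increase among the 34 genes.

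HK1, the constitutive hexokinase, showed 46.7, 42.0, 39.5, 39.6 and 33.2 CPM at 1:40000 and 29.1, 39.7, 39.2, 37.4 and 33.5 CPM at 1:10000. The 2 groups overlapped and the difference did not pass the test, with a log2 fold change of -0.18 ± 0.10 (adjusted p = 0.13). It passed without 1:40000 replicate 5 (adjusted p = 0.041) and in replicates 1 and 2 alone (-0.44, adjusted p = 0.020). In replicates 3 to 5 alone HK1 did not pass (-0.02, adjusted p = 0.84). Per kilobase, HK2 exceeded HK1 in all 3 groups, by 7.11 ± 1.10 against 3.72 ± 0.393 CPM per kilobase in the controls and 27.1 ± 3.52 against 5.68 ± 0.705 at 1:10000. HKDC1, a further hexokinase from the list of other pathway genes, stood above both, at 17.1 ± 2.59 CPM per kilobase in the controls, 35.1 ± 6.34 at 1:40000 and 53.9 ± 1.20 at 1:10000. Its log2 fold change between the dilutions was 0.62 ± 0.11 (adjusted p = 5.6e-05).

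The 3 phosphofructokinase subunits separated. PFKP, the platelet type, had 166 ± 13.3 CPM at 1:40000 and 227 ± 26.8 at 1:10000, a log2 fold change of 0.45 ± 0.07 (adjusted p = 1.8e-05). PFKL, the liver type, had 208 ± 17.2 and 149.6 ± 7.22 CPM, a log2 fold change of -0.48 ± 0.06 (adjusted p = 3.4e-07). PFKM, the muscle type, had 149.7 ± 11.0 and 162 ± 9.18 CPM and did not pass (0.11 ± 0.06, adjusted p = 0.14). It passed without 1:40000 replicate 1 (adjusted p = 0.023), its highest library there at 169 CPM, and without 1:40000 replicates 1 and 2 together (adjusted p = 0.018). PFKM also passed in replicates 3 to 5 alone (0.14, adjusted p = 0.022), but not in replicates 1 and 2 alone (0.06, adjusted p = 0.70).

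ALDOC, an aldolase best known from brain, measured 37.4, 33.2, 26.2, 28.2 and 27.6 CPM at 1:40000 and 22.8, 23.0, 15.6, 18.1 and 17.4 CPM at 1:10000. The dilutions did not overlap, and the log2 fold change was -0.66 ± 0.17 (adjusted p = 0.0025). TPI1, which interconverts the triose phosphates, was slightly lower, at 843 ± 42.9 and 733 ± 49.2 CPM (-0.20 ± 0.06, adjusted p = 0.0036). GPI, the isomerase after hexokinase, had 219.9 ± 18.9 and 213 ± 16.2 CPM and did not pass (adjusted p = 0.62). ALDOA, usually the main aldolase, had only 12.7 to 36.2 CPM in the 15 libraries. Annotated exons of AC093512.2 and AC093512.1 cover up to 55.6% of it, and AC093512.2 itself had 0.203 to 2 CPM, so the counts of ALDOA are uncertain and no change was called (adjusted p = 0.40).

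The bifunctional enzymes that make and break fructose-2,6-bisphosphate, the activator of phosphofructokinase, also split by isoform. PFKFB2 (ENSG00000123836, chromosome 1 from 207034366 to 207081024), the heart type, was at 84.7, 79.4, 77.6, 72.3 and 77.8 CPM at 1:40000 and 142, 147, 137, 134 and 148 CPM at 1:10000. Its groups lay far apart, with a log2 fold change of 0.85 ± 0.06 (adjusted p = 2.1e-11). PFKFB4 (ENSG00000114268, chromosome 3 from 48517684 to 48562015), first known from testis, was at 17.1, 19.5, 18.5, 19.7 and 18.9 CPM at 1:40000 and 8.89, 10.8, 9.46, 8.85 and 11.9 CPM at 1:10000. Here all libraries of the stronger dilution were lower, with a log2 fold change of -0.90 ± 0.15 (adjusted p = 1.8e-05). PFKFB3, the inducible form, had 27.5 ± 3.33 and 32.2 ± 3.55 CPM and did not pass (0.22 ± 0.10, adjusted p = 0.059). It passed without 1:10000 replicate 2 (adjusted p = 0.016) and without 1:40000 replicate 3 (adjusted p = 0.048) or replicate 5 (adjusted p = 0.038).

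**Figure D2:**
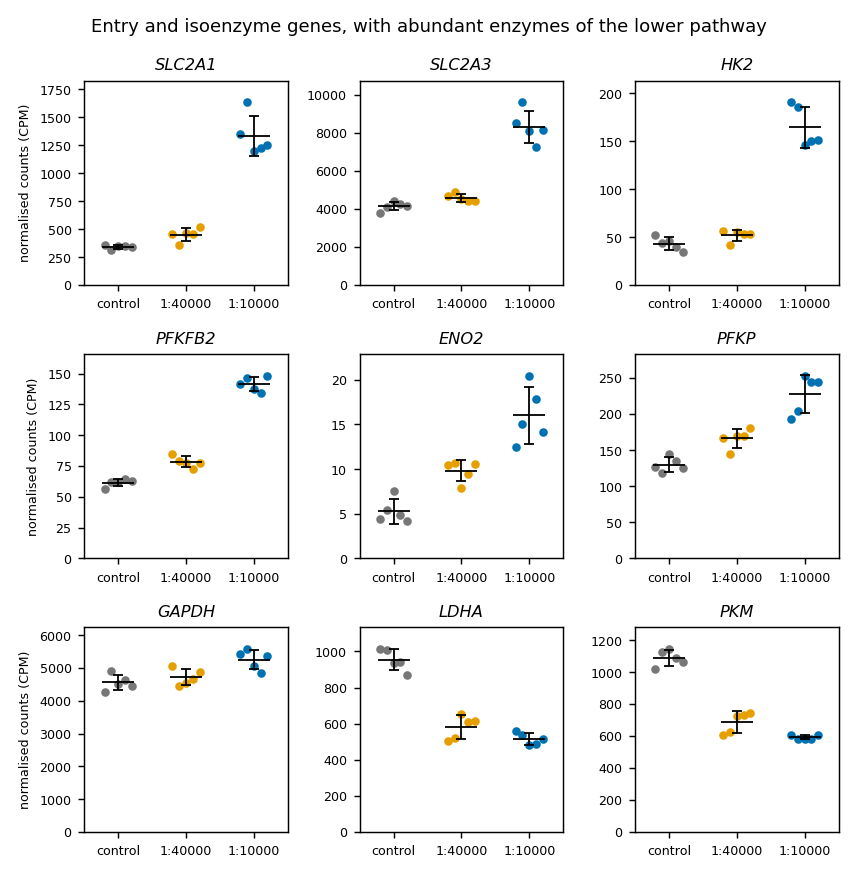
Normalised counts (CPM) by group for 6 genes that were higher at 1:10000 than at 1:40000 and for GAPDH, LDHA and PKM; points are libraries, the long line is the mean and the bars are 1 SD (n = 5). SLC2A1, SLC2A3, HK2, PFKFB2, ENO2 and PFKP sit wholly above 1:40000 at 1:10000, whereas the lower-pathway enzymes GAPDH, LDHA and PKM overlap between the dilutions.

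The 6 enzymes from the triose phosphates to pyruvate differed little between the dilutions, except for ENO2. GAPDH (ENSG00000111640, chromosome 12 from 6533927 to 6538374), the glyceraldehyde-phosphate dehydrogenase often used as a reference gene, had 5053, 4460.0, 4553, 4662 and 4882 CPM at 1:40000 and 5427, 5568, 5046, 4852 and 5360.0 CPM at 1:10000. The groups overlapped and the difference was small, a log2 fold change of 0.15 ± 0.06 (adjusted p = 0.026). It was lost without 1:10000 replicate 2 (adjusted p = 0.054) or 5 (adjusted p = 0.051), without 1:40000 replicate 2 (adjusted p = 0.057), 3 (adjusted p = 0.064) or 4 (adjusted p = 0.056), and under upper-quartile scaling (0.10, adjusted p = 0.11). GAPDH has 65 annotated pseudogenes, which held 0.397 and 0.46% of the counts of GAPDH and its pseudogenes together at 1:10000 and 1:40000.

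ENO2 (ENSG00000111674, chromosome 12 from 6913745 to 6923698), the neuronal enolase, measured 10.4, 10.7, 7.93, 9.46 and 10.6 CPM at 1:40000 and 12.5, 15.1, 20.4, 17.9 and 14.1 CPM at 1:10000. All 1:10000 libraries were higher, with a log2 fold change of 0.73 ± 0.15 (adjusted p = 0.00016). In replicates 1 and 2 alone it was 0.36 (adjusted p = 0.15). ENO1, the main enolase, had 1344 ± 109.5 and 1366 ± 69.2 CPM and did not pass (adjusted p = 0.78). Per kilobase, ENO2 was the minor form, at 3.74 ± 0.735 CPM per kilobase at 1:10000 beside 259 ± 13.1 for ENO1.

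PKM (ENSG00000067225, chromosome 15 from 72199029 to 72231822), the pyruvate kinase of most tissues, had 603, 626, 728, 734 and 743 CPM at 1:40000 and 605, 582, 583, 584 and 608 CPM at 1:10000. Replicate 1 at 1:40000 lay inside the range of the 1:10000 libraries and the other 4 lay above it, with a log2 fold change of -0.21 ± 0.06 (adjusted p = 0.0040). It was -0.30 (adjusted p = 3.4e-08) in replicates 3 to 5 alone and -0.07 (adjusted p = 0.61) in replicates 1 and 2 alone. PGK1, phosphoglycerate kinase, had 467 ± 41.4 and 426 ± 13.4 CPM and fell short of the threshold (-0.13 ± 0.06, adjusted p = 0.051). It passed without 1:40000 replicate 1 (adjusted p = 0.024) or replicate 2 (adjusted p = 0.016). PGK1 was -0.24 (adjusted p = 7.1e-06) in replicates 3 to 5 alone and 0.03 (adjusted p = 0.82) in replicates 1 and 2 alone. PGAM1, phosphoglycerate mutase, had 138 ± 15.2 and 132 ± 6.20 CPM and did not pass (adjusted p = 0.40). In replicates 3 to 5 alone PGAM1 was -0.18 (adjusted p = 0.0051), and in replicates 1 and 2 alone 0.12 (adjusted p = 0.36).

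At the pyruvate branch the differences were small apart from a kinase. LDHA (ENSG00000134333, chromosome 11 from 18394388 to 18408425), the lactate dehydrogenase subunit of glycolytic tissues, had 505, 519, 656, 609 and 614 CPM at 1:40000 and 559.9, 538, 479.7, 489 and 516 CPM at 1:10000. The ranges overlapped, with the 2 lowest 1:40000 values in replicates 1 and 2. The log2 fold change was -0.17 ± 0.07 (adjusted p = 0.039). This call was lost without any one of 1:10000 replicates 2 to 5 or 1:40000 replicates 3 to 5, with adjusted p from 0.058 to 0.14, and with DESeq2 (adjusted p = 0.065). In replicates 1 and 2 alone the difference was 0.08 (adjusted p = 0.51), against -0.33 (adjusted p = 2.6e-08) in replicates 3 to 5 alone. LDHB, the subunit of oxidative tissues, had 96.5 ± 6.52 and 107 ± 18.2 CPM and did not pass (adjusted p = 0.13). It passed without 1:10000 replicate 4 (adjusted p = 0.048) and in replicates 1 and 2 alone (0.32, adjusted p = 0.021). In replicates 3 to 5 alone LDHB did not pass (0.02, adjusted p = 0.85). Exons of AC010197.2 cover up to 33.4% of LDHB.

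PDK2 (ENSG00000005882, chromosome 17 from 50094737 to 50112152), a kinase that switches off pyruvate dehydrogenase, was at 13.9, 13.8, 10.3, 11.1 and 12.5 CPM at 1:40000 and 7.61, 5.70, 8.32, 6.25 and 7.29 CPM at 1:10000. All libraries of the stronger dilution were lower, with a log2 fold change of -0.78 ± 0.13 (adjusted p = 1.4e-05). Exons of SAMD14 cover up to 38.6% of PDK2, so reads there are uncertain. PDK1, its relative known as a hypoxia-responsive gene, had 32.4 ± 1.92 and 41.1 ± 3.50 CPM. Its dilutions did not overlap, but it did not pass the test (0.33 ± 0.15, adjusted p = 0.067); the control libraries, which share the estimate of spread, ranged from 22.0 to 46.9 CPM. In a fit of the 2 dilutions alone its adjusted p was 0.0026.

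The subunits of pyruvate dehydrogenase moved apart. PDHA1, its catalytic alpha subunit, had 139 ± 3.80 CPM at 1:40000 and 107 ± 3.87 at 1:10000 (-0.38 ± 0.05, adjusted p = 1.9e-06). PDHB, the beta subunit of the same enzyme, had 112 ± 2.17 and 130.3 ± 8.14 CPM (0.22 ± 0.06, adjusted p = 0.0013). Neither pair of groups overlapped. Exons of MAP3K15 cover up to 21.3% of PDHA1. The call of PDHB was lost when no filter on low counts was applied (adjusted p = 0.090).

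Of the 7 genes of glucose synthesis, glucose sensing and fructose breakdown, PCK2, FBP1, MLXIPL and KHK were lower at 1:10000, TXNIP and ARRDC4 did not pass, and PCK1 was not tested. PCK2 (ENSG00000100889, chromosome 14 from 24094053 to 24110598), the mitochondrial phosphoenolpyruvate carboxykinase and a gene also driven by amino acid stress, had 252, 206, 183, 195 and 199 CPM at 1:40000. It had 110.1, 143, 127, 115 and 120.0 CPM at 1:10000, below every 1:40000 library, with a log2 fold change of -0.75 ± 0.08 (adjusted p = 3.4e-08). Its control libraries held only 55.5, 58.0, 52.4, 52.2 and 47.2 CPM, so that the weaker dilution had the highest level of the 3 groups. PCK1, the cytosolic form, was below the filter on low counts, at 0.0741 to 0.621 CPM in the 15 libraries, and was not tested.

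FBP1 (ENSG00000165140, chromosome 9 from 94603133 to 94640249), the fructose-bisphosphatase of glucose synthesis, had 4.58, 5.73, 3.48, 3.52 and 3.59 CPM at 1:40000 and 1.40, 1.83, 0.757, 1.07 and 1.09 CPM at 1:10000. Groups did not overlap, and the level was 3.35-fold lower at 1:10000, a log2 fold change of -1.74 ± 0.26 (adjusted p = 4.3e-06). With 6 to 12 counts per library at 1:10000 its level is known only roughly.

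MLXIPL (ENSG00000009950, chromosome 7 from 73593194 to 73624543), which encodes the sugar sensor ChREBP, had 11.1, 6.88, 5.49, 7.45 and 9.02 CPM at 1:40000 and 2.81, 3.26, 1.77, 1.53 and 2.95 CPM at 1:10000. The dilutions were fully separate, with a log2 fold change of -1.76 ± 0.25 (adjusted p = 2.4e-06), from 10 to 24 counts per library at 1:10000. It was the largest decrease among the 34 genes.

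KHK (ENSG00000138030, chromosome 2 from 27086747 to 27100772), the ketohexokinase that starts fructose breakdown, had 9.40, 8.40, 9.79, 11.1 and 10.04 CPM at 1:40000 and 2.69, 5.49, 4.41, 5.64 and 4.04 CPM at 1:10000. All libraries of the stronger dilution were lower, with a log2 fold change of -1.17 ± 0.16 (adjusted p = 1.3e-06). Exons of CGREF1 cover up to 23.8% of KHK. The genes of fructose entry and its first step, SLC2A5 and KHK, were both lower at 1:10000.

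**Figure D3:**
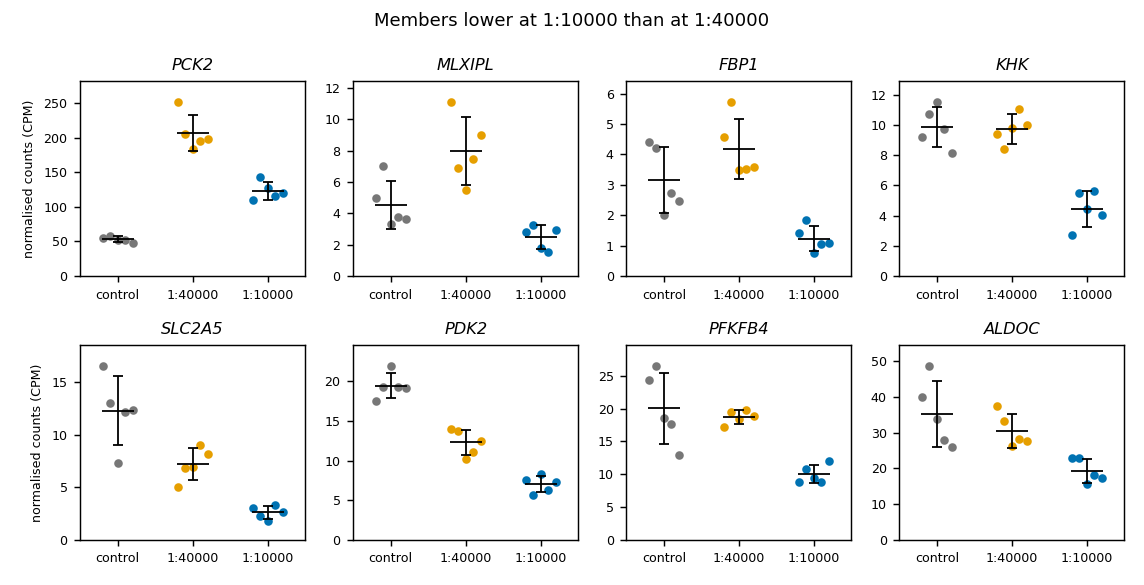
Normalised counts (CPM) by group for 8 genes that were lower at 1:10000 than at 1:40000; points are libraries, the long line is the mean and the bars are 1 SD (n = 5). PCK2 and MLXIPL have their highest mean at 1:40000, KHK and PFKFB4 have similar means in control and 1:40000, and SLC2A5 and PDK2 step down from control to 1:40000 to 1:10000.

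The alpha-arrestin genes did not separate the dilutions in the fit of all libraries, and every value is given here although the choice to do so was made after the values were seen. TXNIP (ENSG00000265972, chromosome 1 from 145992435 to 145996600) had 42.5, 47.6, 33.1, 41.6 and 34.9 CPM in the controls, 18.2, 15.7, 8.41, 6.85 and 9.22 CPM at 1:40000 and 16.5, 16.9, 12.7, 8.70 and 11.5 CPM at 1:10000. All rinse aid libraries were lower than all controls, and replicates 1 and 2 were the highest within each of the 3 groups, as they were for ALDOC and FBP1. The log2 fold change between the dilutions was 0.16 ± 0.27 (adjusted p = 0.63). Replicates 1 and 2 at 1:40000 also held more mitochondrial messenger RNA, 2.06 and 1.91% of counts against 1.24 to 1.35% in the other 3, whose part was not tested. In replicates 3 to 5 alone the log2 fold change of TXNIP was 0.44 (adjusted p = 0.013), in replicates 1 and 2 alone it was -0.10 (adjusted p = 0.65), and with the set of replicates as a term of the fit it was 0.19 (adjusted p = 0.27). Without replicate 1 at 1:40000 it was 0.56 (adjusted p = 0.026), and without both it was 0.70 (adjusted p = 0.0024), higher at 1:10000.

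ARRDC4 (ENSG00000140450, chromosome 15 from 97960698 to 97973838) had 3.40, 3.04, 3.11, 4.42 and 3.36 CPM in the controls, 1.18, 3.06, 1.30, 0.503 and 0.922 CPM at 1:40000 and 1.17, 2.44, 1.77, 1.53 and 2.48 CPM at 1:10000. The dilutions overlapped, and replicate 2 stood well above the others at 1:40000, where libraries held as few as 5 counts. Its log2 fold change between the dilutions was 0.64 ± 0.31 (adjusted p = 0.079). It passed without 1:40000 replicate 2 (0.79, adjusted p = 0.023) and without 1:10000 replicate 1 (0.80, adjusted p = 0.040), and in replicates 3 to 5 alone (0.92, adjusted p = 0.029), while replicates 1 and 2 alone gave 0.21 (adjusted p = 0.78).

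**Figure D4:**
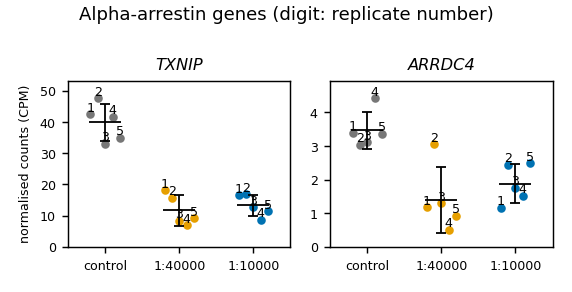
Normalised counts (CPM) of TXNIP and ARRDC4 in the 3 groups; points are libraries labelled by replicate number, the long line is the mean and the bars are 1 SD (n = 5). TXNIP lies between 6.85 and 18.2 CPM in all rinse aid libraries and between 33.1 and 47.6 CPM in the controls.

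Of the 59 other pathway genes, 39 were tested between the dilutions, with 10 higher and 16 lower at 1:10000 (66.7%, against 57.3% of all genes). The largest of the increases was in SLC16A3, the lactate exporter of glycolytic cells, at 12.4 ± 1.81 CPM at 1:40000 and 36.7 ± 4.19 at 1:10000 (1.52 ± 0.11, adjusted p = 4.9e-11). MLX, the partner of ChREBP and MondoA, had 38.7 ± 3.30 and 75.7 ± 5.88 CPM (0.98 ± 0.08, adjusted p = 1.3e-10). ARRDC3, an alpha-arrestin related to TXNIP, had 96.3 ± 4.23 and 169 ± 19.8 CPM (0.81 ± 0.08, adjusted p = 9.7e-09). PGM2, a phosphopentomutase, had 40.1 ± 2.79 and 75.6 ± 8.52 CPM (0.90 ± 0.08, adjusted p = 8.4e-10), and SLC2A14 was higher by a log2 fold change of 0.68 ± 0.07.

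The other list of glucose synthesis has 7 genes, of which 3 were tested. All 3 were called lower at 1:10000, as were 29.0% of all genes tested. PC, pyruvate carboxylase, had 24.3 ± 3.46 CPM at 1:40000 and 9.86 ± 1.75 at 1:10000 (-1.34 ± 0.13, adjusted p = 4.0e-09). G6PC3, the widespread glucose-6-phosphatase, had a log2 fold change of -0.69 ± 0.07 and SLC37A4, which carries its substrate into the endoplasmic reticulum, one of -0.68 ± 0.06. LDHD, the mitochondrial D-lactate dehydrogenase, had 17.2 ± 4.52 and 3.27 ± 0.882 CPM (-2.43 ± 0.24, adjusted p = 4.4e-08), and PDK3, a further pyruvate dehydrogenase kinase, had 7.21 ± 1.23 and 2.29 ± 0.756 CPM (-1.61 ± 0.21).

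Sugar transport and side branches held the remaining decreases of at least 0.5 on the log2 scale. SLC5A9, a sodium-coupled sugar transporter, changed by -1.16 ± 0.24, SLC2A6, a lysosomal transporter, by -0.92 ± 0.14, and TIGAR, which breaks down fructose-2,6-bisphosphate, by -0.88 ± 0.20. Exons of other genes cover up to 45.6% of TIGAR and up to 23.2% of TKFC, so reads there are uncertain. In the fructose and polyol branch TKFC, the triokinase that follows ketohexokinase, changed by -0.77 ± 0.10 and AKR1B1, aldose reductase, by -0.71 ± 0.07. GALM, which interconverts the anomers of hexoses, changed by -0.72 ± 0.08.

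Comparisons with control carry a limit that the one between dilutions does not. The control files name RNA STAR and the rinse aid files HISAT2, and the 2 sets list 60649 and 61544 genes, so exposure cannot be told apart from aligner and annotation. The sets of files differ in the reads given to pseudogenes. Of the counts of LDHB and its pseudogenes together, the pseudogenes held 1.01% in the controls, 11.7% at 1:10000 and 13.9% at 1:40000. For TPI1 the same shares were 0.452, 2.32 and 2.84%. Of the 35 genes 13 have named pseudogenes, 110 in all. Adding their counts to the gene before the fit gave 30 and 22 genes called at 1:10000 and 1:40000 against control. Without them 30 and 21 were called. The gene gained at 1:40000 was LDHB, with a log2 fold change of 0.23 (adjusted p = 0.031) with the pseudogenes and 0.04 (adjusted p = 0.71) without. Both comparisons with control also share the 5 control libraries.

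Against control, 30 of the 34 genes differed at 1:10000, 13 higher and 17 lower (88.2%), where 71.0% of all genes were called, 34.8% higher and 36.2% lower. Groups did not overlap for 26 of them, against 57.8% of all genes, and the median log2 fold change was -0.36 for these genes and -0.0198 for all. At 1:40000, 21 differed from control, 9 higher and 12 lower (61.8%), where 52.1% of all genes were called, 26.1% higher and 26.0% lower. Groups did not overlap for 16, against 36.3% of all genes, and the medians were 0.0118 and -0.0022.

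SLC2A1 and HK2, the entry steps, had control levels of 359, 309, 351, 349 and 344 CPM and of 52.3, 43.3, 45.7, 39.5 and 34.6 CPM. The log2 fold change against control was 1.96 ± 0.09 (adjusted p = 5.6e-14) and 1.95 ± 0.10 (adjusted p = 6.4e-14) at 1:10000. At 1:40000 it was 0.40 ± 0.09 (adjusted p = 0.00075) and 0.31 ± 0.10 (adjusted p = 0.013), with libraries that overlapped the controls. In replicates 1 and 2 alone neither gene passed at 1:40000 (SLC2A1 0.31, adjusted p = 0.052, and HK2 0.15, adjusted p = 0.38). Among the enzymes that follow, PFKFB2 differed from control by 1.20 ± 0.06 at 1:10000 and 0.35 ± 0.06 at 1:40000, PFKP by 0.81 ± 0.08 and 0.37 ± 0.08, and ENO2 by 1.64 ± 0.16 and 0.91 ± 0.16. SLC2A3 differed by 1.00 ± 0.07 at 1:10000 and did not pass at 1:40000 (0.15 ± 0.07, adjusted p = 0.065). At 1:40000 SLC2A3 passed in 6 of 20 alternatives planned at the outset and in replicates 1 and 2 alone (0.30, adjusted p = 0.032). It did not pass in replicates 3 to 5 alone (0.06, adjusted p = 0.20). SLC16A3 had 3.77 ± 0.766 CPM in the controls, with log2 fold changes of 3.33 ± 0.14 and 1.81 ± 0.14.

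HK1 was higher than control at both dilutions, with control libraries of 20.6, 25.3, 26.6, 22.9 and 21.8 CPM and no overlap. Its log2 fold change was 0.61 ± 0.11 (adjusted p = 1.5e-05) at 1:10000 and 0.79 ± 0.10 (adjusted p = 6.2e-07) at 1:40000. PCK2 differed by 1.21 ± 0.09 (adjusted p = 8.1e-12) and 1.96 ± 0.09 (adjusted p = 8.8e-16), the largest increase at 1:40000 among the 34 genes.

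In the lower pathway LDHA, PKM, PGK1 and ENO1 were below control at both dilutions, and GAPDH and PGAM1 were not. LDHA had 1012, 1006, 935, 943 and 871 CPM in the controls, above every rinse aid library, with log2 fold changes of -0.88 ± 0.07 (adjusted p = 3.2e-11) and -0.71 ± 0.07 (adjusted p = 4.5e-09) at 1:10000 and 1:40000. PKM had 1019, 1127, 1142, 1088 and 1065 CPM in the controls, and differed by -0.88 ± 0.06 and -0.66 ± 0.06; the version of its gene model differs between the sets of files. PGK1 (-0.57 ± 0.06 and -0.43 ± 0.06) and ENO1 (-0.35 ± 0.06 and -0.37 ± 0.06) fell too, as did GPI (-0.76 ± 0.07 and -0.72 ± 0.07) and TPI1 (-0.67 ± 0.06 and -0.47 ± 0.06) of the upper pathway. PGAM1 gave 0.01 ± 0.07 (adjusted p = 0.86) and 0.08 ± 0.07 (adjusted p = 0.31). GAPDH had 4266, 4893, 4522, 4647 and 4463 CPM in the controls and differed by 0.20 ± 0.06 (adjusted p = 0.0029) at 1:10000, while 0.05 ± 0.06 at 1:40000 did not pass (adjusted p = 0.48).

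TXNIP was 3.03-fold below control at 1:10000 (-1.60 ± 0.26, adjusted p = 6.4e-05) and 3.4-fold below at 1:40000 (-1.76 ± 0.25, adjusted p = 3.6e-05). ARRDC4 differed by -0.94 ± 0.29 (adjusted p = 0.0057) and -1.59 ± 0.28 (adjusted p = 3.8e-05), with replicate 2 at 1:40000 inside the control range. In replicates 1 and 2 alone ARRDC4 passed at neither dilution (adjusted p = 0.12 and 0.059). ARRDC3 went the opposite way, by 2.36 ± 0.09 (adjusted p = 3.3e-17) and 1.54 ± 0.09 (adjusted p = 2.2e-13). MLXIPL was below control at 1:10000 (-0.93 ± 0.28, adjusted p = 0.0046) and above it at 1:40000 (0.83 ± 0.22, adjusted p = 0.0030), from control libraries of 4.99, 7.05, 3.33, 3.74 and 3.62 CPM that overlapped those at 1:40000.

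SLC2A5, with control libraries of 16.6, 13.0, 7.32, 12.2 and 12.4 CPM, differed by -2.24 ± 0.22 (adjusted p = 2.0e-09) at 1:10000, the largest decrease there, and by -0.82 ± 0.18 (adjusted p = 0.00051) at 1:40000. KHK had 9.19, 10.8, 11.5, 9.72 and 8.14 CPM in the controls and differed by -1.17 ± 0.17 (adjusted p = 1.0e-06) at 1:10000, while its 1:40000 level did not pass (0.0003 ± 0.14). FBP1, at 4.39, 4.21, 2.00, 2.72 and 2.46 CPM in the controls, differed by -1.40 ± 0.28 (adjusted p = 0.00010) at 1:10000 and did not pass at 1:40000 (0.35 ± 0.22, adjusted p = 0.19). PFKFB4 and ALDOC differed by -1.01 ± 0.15 and -0.86 ± 0.17 at 1:10000 and did not pass at 1:40000. PDK2 was lower at both, by -1.44 ± 0.13 and -0.67 ± 0.11, from 17.6 to 22.0 CPM in the controls. SLC2A2 was lower than control at 1:40000 (-0.93 ± 0.20, adjusted p = 0.00044) and did not pass at 1:10000 (-0.38 ± 0.21, adjusted p = 0.10). At 1:10000 it passed without 1:10000 replicate 1 (adjusted p = 0.024) and in replicates 3 to 5 alone (-0.67, adjusted p = 0.0037). In replicates 1 and 2 alone SLC2A2 did not pass at 1:10000 (-0.08, adjusted p = 0.79). PDHB gave -0.25 ± 0.06 (adjusted p = 0.00043) at 1:40000 and -0.03 ± 0.06 (adjusted p = 0.63) at 1:10000.

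**Figure D5:**
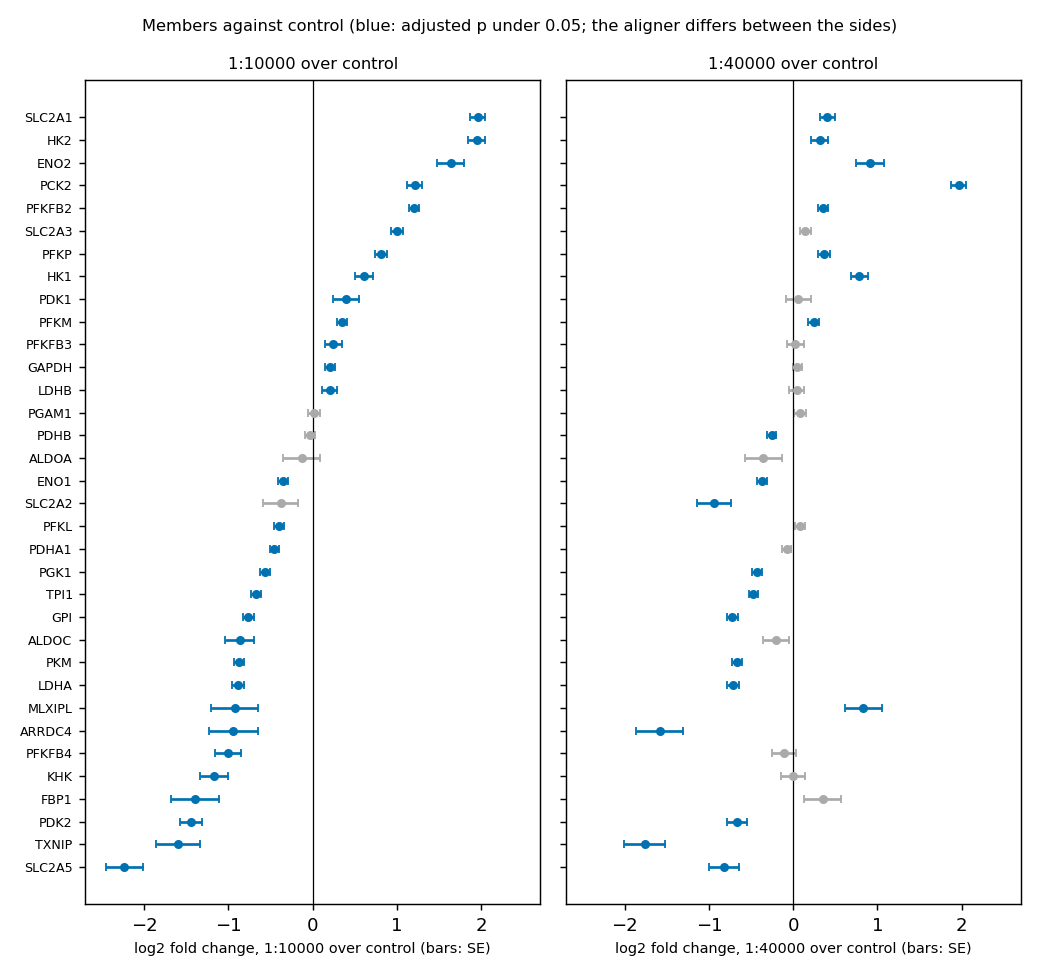
Log2 fold change of the 34 genes tested at 1:10000 over control (left) and 1:40000 over control (right), in the order of the left panel, with bars of 1 SE; blue points passed the adjusted p of 0.05. Both panels share the control libraries. PCK2 and MLXIPL lie farther right at 1:40000 than at 1:10000, and SLC2A1 and HK2 lie near 2 at 1:10000.

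By group means, without a test, 11 of the 34 genes stood in the order control, 1:40000, 1:10000 from low to high, namely SLC2A1, SLC2A3, HK2, PFKM, PFKP, PFKFB2, PFKFB3, GAPDH, ENO2, LDHB and PDK1. Another 11 stood in that order from high to low, namely SLC2A5, GPI, ALDOC, TPI1, PFKFB4, PGK1, PKM, LDHA, PDK2, PDHA1 and KHK. The weaker dilution had the highest mean in 6, HK1, PFKL, PGAM1, PCK2, FBP1 and MLXIPL, and the lowest in 6, SLC2A2, ALDOA, ENO1, PDHB, TXNIP and ARRDC4. Many neighbours in these orders differed by less than the spread between libraries, as for GPI between the dilutions and for PFKFB3 and LDHB between control and 1:40000. The share of all genes tested in each order was not counted, so these counts cannot be read as particular to the pathway.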

How the data were processed

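The authors deposited a table of raw counts by Ensembl gene for each of the 15 libraries. Kits named in the labels' protocols are RNeasy Plus Micro for RNA and TruSeq RNA, with PolyA, for libraries. Named in the submitters' processing notes, with no role or order, are GRCh38, featureCounts, cutadapt, DESeq2 1.32.0 and STAR 2.7.9a. Per the file headers, control files came from RNA STAR and rinse aid files from HISAT2. The annotation release and the strand setting are not given in the sources used here, so counts of genes that overlap others are uncertain, as for 21 of the 35 genes.

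Tables were joined on 60557 shared Ensembl identifiers, which held at least 99.973% of each library's counts. In R 4.3.3, edgeR 4.0.16 fitted 1 mean for each of 3 groups by robust quasi-likelihood, after trimmed mean of M-values scaling and the filterByExpr filter on low counts, and was checked on simulated data. Genes were called at an adjusted p under 0.05. The SE is approximate, obtained from the F statistic and the size of the log2 fold change. Coordinates, exon lengths and overlaps came from GENCODE 29, promoters from RefSeq.

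No 2 libraries of a group agreed within sampling noise (smallest mean chi-square per gene 1.729). Alternatives changed the filter, scaling, tool (DESeq2 1.42.0), samples, replicate block, depth of 1 library and pseudogene counts, and, chosen after seeing the data, took replicates 1 and 2 apart from 3 to 5. The genes and lists were chosen with earlier results of these data known. By rule, all 35 genes are named, each library's value is given for the 14 called between the dilutions at an absolute log2 fold change of at least 0.5 and for GAPDH, LDHA, PKM and HK1, and other pathway genes are named if called there at 0.5 or more.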

Additional observations from a re-analysis of the deposited data

Results flagged for a closer look

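Of 105 sets of 5 libraries (35 genes in 3 groups), 4 held a library set apart from the rest by more than 0.71 of the set's range, the 95% limit of Dixon's test, which chance gives in about 1 in 20 sets. HK2 at 1:40000 had 42 CPM in replicate 2, with 52.7 to 56.1 CPM in the other 4. PFKM had 139 CPM in control replicate 2, with 123 to 124 CPM in the other controls, and 169 CPM in 1:40000 replicate 1, with 141 to 147 CPM in the others of that group. ARRDC4 had 4.42 CPM in control replicate 4, with 3.03 to 3.4 CPM in the other controls.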

How the results depend on the processing

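Between the dilutions 18 of 22 calls were kept in all alternatives planned at the outset; GAPDH, LDHA, PDHB and SLC2A2 lost theirs in at least 1, and 9 uncalled genes passed in at least 1. Against control the kept calls were 27 of 30 at 1:10000 (LDHB, PDK1 and PFKFB3 lost) and 21 of 21 at 1:40000. No direction of a called gene reversed in these. Alternatives chosen after seeing the data used the set of replicates (1 and 2, or 3 to 5). At 1:40000 against control, replicates 1 and 2 alone lost the calls of SLC2A1, HK2, PDK2, PDHB and ARRDC4. At 1:10000 against control they lost those of PFKFB3, PDK1 and ARRDC4, and replicates 3 to 5 alone lost that of LDHB. In replicates 1 and 2 alone LDHA reversed between the dilutions (0.083), and 19, 27 and 18 genes of the pathway and 5636, 7927 and 5506 genes in all were called for 1:10000 against 1:40000, 1:10000 against control and 1:40000 against control. In replicates 3 to 5 alone these were 27, 30 and 24, and 7571, 9196 and 6830, and with the set as a term 25, 30 and 22, and 8098, 9658 and 7558. Leaving out 1 library at a time gave 19 to 24, 27 to 30 and 21 to 21 genes of the pathway, and 7075 to 7531, 9053 to 9376 and 6254 to 6800 genes in all, in the same order. Without 1:40000 replicates 1 and 2, the deepest and the shallowest library, 26 genes of the pathway were called between the dilutions, 11 higher and 15 lower, with 7479 of all 13510 genes tested (55.4%). Depth limits ARRDC4, FBP1, SLC2A2, MLXIPL and SLC2A5, with as few as 5, 6, 9, 10 and 11 counts in a library. The causes of these changes were not tested.

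With the replicate number as a block, 24, 30 and 23 genes of the pathway and 8012, 9592 and 7314 genes in all were called in the same order of comparisons. Same-numbered libraries of the dilutions had deviations correlated at 0.28, 0.10, 0.23, 0.046 and 0.104 for replicates 1 to 5. Replicates 1, 2 and 3 each correlated best with their own number, and replicates 4 and 5 each with the other's number. The numbers were not taken to pair the samples in the main fit, which leaves any such structure out. With the block PDK1 (adjusted p = 0.023) and PFKFB3 (adjusted p = 0.039) passed between the dilutions, and SLC2A3 (adjusted p = 0.049) and ALDOA (adjusted p = 0.040) at 1:40000 against control.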
